A study of Arabidopsis thaliana with 12 samples.

Results

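The gene described here is CYN (AT3G23490), the cyanase of Arabidopsis thaliana, followed across plants given 100 mM proline for 3 h and plants given water. It was taken as the feature that GEO's platform annotation assigns to CYN alone, and this is 1 feature of the 3439 on the array and 1 of the 692 that carry 1 gene name. The gene was picked because of its fall after proline in these same arrays, so its levels and its change are given as a description, without a test. In the RefSeq gene table of the TAIR10.1 assembly the locus lies on chromosome 3, has 3 transcripts, and is the only entry named cyanase. The sources used here do not say which part of the gene the array feature covers, so isoforms cannot be told apart.

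Cyanase catalyses the reaction of cyanate with bicarbonate to carbamate and carbon dioxide, and the carbamate then decays to ammonia and a further carbon dioxide. The enzyme removes a toxic small molecule and frees its nitrogen, which in Escherichia coli allows growth on cyanate as the nitrogen source. Its reaction thus borders on bicarbonate supply by carbonic anhydrases, on ammonium assimilation into glutamine and glutamate, and on carbamoyl phosphate and arginine metabolism. Proline is an amino acid that plants build up under drought and salt and break down in mitochondria to glutamate.

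RNA from wild-type plants of the ecotype Wassilevskija was measured on 12 one-colour arrays, 6 from plants given 100 mM proline for 3 h and 6 from plants given water. Per the labels the treatment was meant to raise cellular proline to toxic levels. A time is given for the proline samples only, so time and proline cannot be told apart from the titles. The labels name neither the plant part nor the age, growth conditions or origin of the replicates. Values are relative intensities on a linear scale with a ceiling of 100, and the number of features at 0 ran from 453 to 534 per array. In this bulk tissue, fewer cells that express a gene and less RNA per cell cannot be told apart. Successive replicates of a group resembled each other (r of 0.957 to 0.969 across features, against 0.921 to 0.951 for other replicates of a group), and nothing in the labels says whether they share plants or RNA, so the 6 samples of a group may hold fewer than 6 separate ones.

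CYN gave a bright signal in water and a much dimmer one after proline. Its deposited intensity was 3.34, 2.70, 1.93, 1.67, 2.63 and 2.29 in proline replicates 1 to 6, against 8.99, 8.44, 12.01, 8.56, 7.65 and 7.31 in water replicates 1 to 6. All 6 proline samples lay below all 6 water samples, and the lowest water sample was 2.19 times the highest proline sample. The highest water sample was replicate 3 and the lowest proline sample was replicate 4. The mean was 2.43 ± 0.599 after proline and 8.83 ± 1.68 in water (SD, n = 6 each), so the proline mean was 27.5% of the water mean. Without water replicate 3 the water mean was 8.19 ± 0.690 (SD). The groups of CYN were also apart in quantile-normalized log2 values (0.64 to 1.63 after proline, 2.96 to 3.62 in water). In those values, not as deposited, features without overlap and with proline lower were counted. They made up 14.8% of the 2674 features measured above 0 on all 12 arrays, and 22.8% of the bright features among them.

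**Figure D1:**
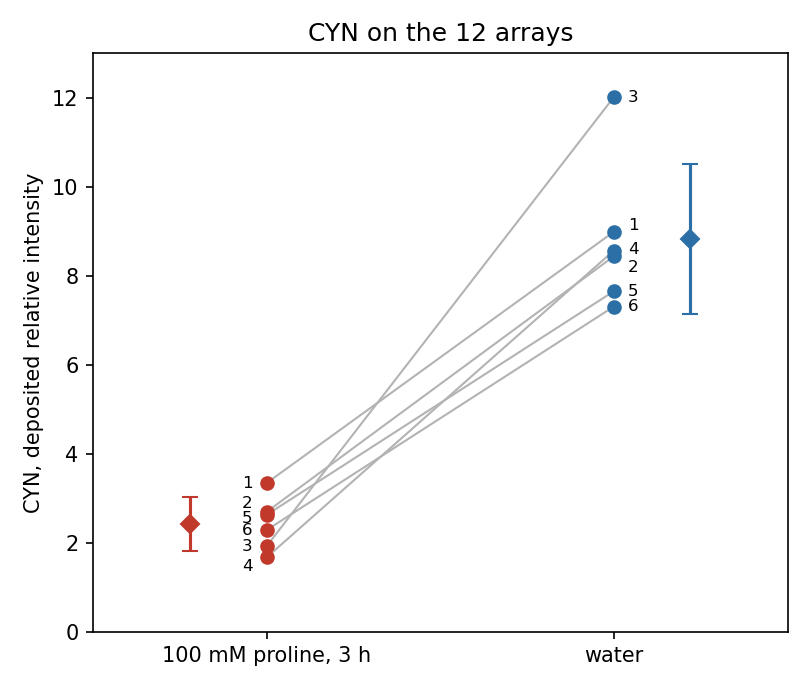
Deposited relative intensity of CYN (linear vertical axis) in the 6 proline samples and the 6 water samples. Points are samples labelled by replicate number, grey lines join equal numbers, and diamonds with bars are the mean ± SD; the proline points lie between 1.67 and 3.34 and the water points between 7.31 and 12.01.

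On the normalized log2 scale the change of CYN was -2.04 ± 0.16 (SE), which is a level 4.12-fold lower after proline. The ratio of the deposited means gave a 3.64-fold lower level. The median change of all tested features depended on the scaling, at -0.12 after quantile normalization and 0.057 in the values as deposited. Relative to that median, the change of CYN was -1.93 after quantile normalization, -1.94 as deposited, -1.94 after median scaling and -1.89 after cyclic loess. After quantile normalization a fall of at least 4-fold was seen for 0.594% of the 2861 tested features and, among the bright features, for CYN alone (0.529%). That limit lay close to the change of CYN itself, which fell short of 4-fold as deposited (log2 -1.88) and after cyclic loess (log2 -1.95).

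The size of the fall differed between replicate numbers. By number, the deposited intensity after proline was 2.69-fold lower for replicate 1, 3.13-fold lower for replicate 2, 6.24-fold lower for replicate 3, 5.12-fold lower for replicate 4, 2.91-fold lower for replicate 5 and 3.19-fold lower for replicate 6. The proline sample was lower in 6 of 6 numbers, and the normalized log2 differences had an SD of 0.46. Replicates 3 and 4 stood apart from the other numbers in fold. Averaged over successive replicates, the intensity was 3.02 after proline and 8.71 in water for replicates 1 and 2 (2.89-fold lower), 1.80 after proline and 10.3 in water for replicates 3 and 4 (5.72-fold lower), and 2.46 after proline and 7.48 in water for replicates 5 and 6 (3.04-fold lower). Replicates 3 and 4 thus held both the lowest proline mean and the highest water mean. The high water mean came from replicate 3, since water replicate 4 (8.56) lay between water replicates 2 (8.44) and 1 (8.99).

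The spread of CYN within a group was larger than the median of the bright features, in water through replicate 3 alone. Its coefficient of variation was 24.7% after proline and 19.0% in water. On the normalized log2 scale the SD was 0.34 after proline and 0.23 in water, where the medians over the 189 bright features were 0.20 after proline and 0.18 in water. By SD it stood 26th of 189 after proline and 56th of 189 in water, counted from the most variable. Without water replicate 3, chosen after the data were seen, its coefficient of variation in water was 8.43% and its log2 SD 0.098, 161st of 189 and below the bright median of 0.18.

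Among bright features, defined by a mean intensity of 2 or more in water, CYN was in the upper part in water and the lower part after proline. Intensities of different features depend on the probe as well as on the transcript, so these positions order signals and not transcript numbers. Of 189 bright features, CYN was 148th in mean intensity after proline and 56th in water. After proline 21.7% of the bright features were dimmer than CYN, and in water 70.4% were. Over all 3439 features CYN was 174th after proline and 56th in water, and its position on single arrays ran from 41st, in water replicate 3, to 251st, in proline replicate 4. Just inside the limit for bright features were AT3G52070, with 2.77 after proline and 2.02 in water, and an unnamed feature with 2.27 after proline and 2.02 in water, and just outside it were AT3G44020, with 1.72 after proline and 1.96 in water, and an unnamed feature with 1.996 after proline and 1.95 in water.

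In change, CYN stood first of the 189 bright features, both among falls and in absolute size. The next largest fall belonged to a feature without a single gene name, with 3.59 ± 0.382 after proline and 9.23 ± 0.982 in water (SD, n = 6 each), a log2 change of -1.58 ± 0.096 (SE). Only 7 bright features were at least 2-fold lower after normalization and 1 was at least 2-fold higher. The median log2 change of the bright features was -0.19, and 48.7% of them passed the test across all features (limma), 34.9% with a lower value. Taken by replicate number, CYN had the largest fall of the bright features in replicates 2 to 6 and the third largest in replicate 1, where its log2 difference was -1.55 and the largest of the others -1.82. It kept the first place among falls under each of the 26 alternatives described at the end, which include leaving out each sample. Filters, blocks, averaging and smaller sets of bright features could not have changed that place. In absolute size CYN was second of 353 with a limit of 1 for bright features.

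**Figure D2:**
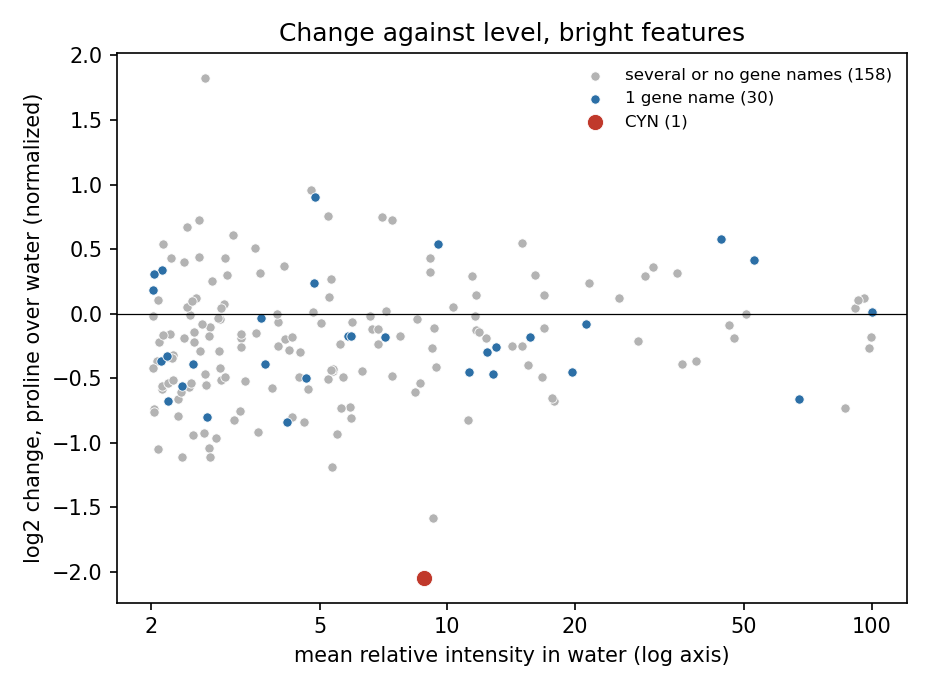
Normalized log2 change, proline over water (vertical axis), against mean relative intensity in water (horizontal log axis) for the 189 bright features. Each point is a feature; CYN lies lowest, at -2.04, and the next lowest point, of a feature without a single gene name, is at -1.58.

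Larger falls were found only below the limit for bright features. Of the 2861 tested features, 14 had a larger fall than CYN, and their water means ran from 0.0306 to 0.615, below the 8.83 of CYN. Their median water mean was 0.163, near the 0.176 of all features. Those with 1 gene name, named after their values were seen, were AT1G08845 (log2 -2.89), AT4G16060 (log2 -2.56) and AT1G24240 (log2 -2.18). The deposited means of AT1G08845 were 0.0203 after proline and 0.157 in water. AT4G16060 had 0.0132 after proline and 0.0757 in water, and AT1G24240 0.275 after proline and 0.615 in water. Of these 14 features, 5 were listed at 0 on at least 1 array. Of the 31 bright features with 1 gene name, CYN was 25th in level after proline and 13th in water, and it alone was at least 2-fold lower. The 4 named bright genes with the next largest falls are given with their deposited means (SD, n = 6 each). AT5G36470 had 2.70 ± 0.506 after proline and 4.19 ± 1.004 in water, with a log2 change of -0.84. PSAN, which helps dock plastocyanin at photosystem I in the thylakoid lumen, had 1.88 ± 0.489 after proline and 2.71 ± 0.343 in water, with a log2 change of -0.80. AT5G52810 had 1.62 ± 0.247 after proline and 2.19 ± 0.297 in water, with a log2 change of -0.68. AT4G22830, with a log2 change of -0.66, was far brighter than CYN, with 42.2 ± 6.02 after proline and 67.5 ± 6.55 in water. The change of CYN was thus more than 1 log2 unit larger than that of any other named bright gene.

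None of the 6 named features next to CYN in water level had a fall near its size. The 3 next brighter in water were CCL, with 11.01 ± 2.08 after proline and 12.4 ± 1.43 in water, AT3G26630, with 9.29 ± 1.99 after proline and 11.2 ± 1.42 in water, and AT4G19900, with 14.5 ± 0.750 after proline and 9.51 ± 0.975 in water (SD, n = 6 each). The log2 changes of CCL and AT3G26630 were -0.30 and -0.45, the same direction as CYN under each scaling. AT4G19900 had a higher level after proline at nearly the water signal of CYN, and its proline samples, at 13.7 to 15.4, all lay above its water samples, at 8.39 to 11.2. Its normalized values did not overlap between the groups either. Over both directions that held for 27.5% of the 2674 features above 0 on all 12 arrays. The 3 next dimmer were AT5G50350, with 7.59 ± 1.24 after proline and 7.14 ± 0.933 in water, AT4G29890, with 6.36 ± 0.376 after proline and 5.93 ± 0.343 in water, and NdhS, with 6.19 ± 0.323 after proline and 5.83 ± 0.744 in water. NdhS is a subunit of the NDH complex of the thylakoid, which carries cyclic electron flow around photosystem I. The log2 changes of these last 3 were -0.18, -0.17 and -0.18 after quantile normalization and 0.082, 0.10 and 0.094 as deposited, so their direction turned with the scaling. In water, 15 other bright features had a mean within 1 SD of that of CYN.

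The genes nearest to CYN in cyanate metabolism were scarcely represented by features of their own. Of 76 other genes in 6 lists (cyanate, carbamate and arginine; carbonic anhydrases; ammonium assimilation and transport; cyanide and thiocyanate handling; proline metabolism and electron transfer; nitrate reduction and photorespiratory nitrogen), 3 had a feature with 1 gene name. The 12 carbonic anhydrase genes, 16 ammonium genes and 11 cyanide genes had none. OTC and PYRB, the carbamoyltransferases of arginine and pyrimidine synthesis, shared features with each other, and no value is given to either. Of the 3 that could be tested, 1 was higher, 1 was lower and 1 did not pass (limma with Benjamini-Hochberg adjustment over 2861 features), where 44.1% of all tested features changed, 18.3% higher and 25.9% lower.

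AT5G10920, the argininosuccinate lyase that releases arginine, had 1.03, 1.09, 0.812, 0.828, 1.57 and 1.74 in proline replicates 1 to 6, against 0.580, 0.578, 0.595, 0.606, 0.4995 and 0.737 in water replicates 1 to 6. The deposited values of the groups did not overlap, the normalized ones did, and the highest proline samples were replicates 5 and 6. Its level rose 1.501-fold (log2 0.59 ± 0.19 SE, adjusted p = 0.0258, limma), but the call was lost without water replicate 5 (adjusted p = 0.0549) or proline replicate 5 (adjusted p = 0.0553), and with successive replicates averaged (adjusted p = 0.142) or as a random block (adjusted p = 0.0666). Over all its alternatives the adjusted p (limma) ran from 0.00224 to 0.142. SIRB, the ferrochelatase that makes the sirohaem of nitrite and sulfite reductases, had 0.126, 0.131, 0.130, 0.119, 0.140 and 0.151 in proline replicates 1 to 6, against 0.186, 0.132, 0.194, 0.209, 0.194 and 0.171 in water replicates 1 to 6. Water replicate 2 lay within the range of the proline samples, and the other 5 water samples lay above it. Its log2 level fell by 0.51 (SE 0.12, adjusted p = 0.00541, limma). The adjusted p ran from 6.14e-04 to 0.0665 over its alternatives (limma), the highest being that with successive replicates averaged. ETFQO passes electrons from amino acid breakdown to ubiquinone in mitochondria. Its log2 change was -1.29 ± 0.70 (SE, adjusted p = 0.165, limma). It was listed at 0 in proline replicates 2 and 4 and averaged 0.0231 ± 0.0273 after proline and 0.0679 ± 0.0142 in water (SD, n = 6 each, zeros included). Its 2 zeros were left out of the fit, and replacing zeros by the lowest value gave a log2 change of -3.64 (adjusted p = 0.0814, limma). Over the alternatives in which it could be fitted, the adjusted p (limma) ran from 0.0550 to 0.477.

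Of the 20 genes beside CYN on chromosome 3, 10 on either side, none had a feature with 1 gene name or with several. Its neighbours are therefore not analysed here.

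The patterns most like that of CYN were sought among the 535 single-gene features above 0 on all 12 arrays. Likeness was Pearson's r between normalized log2 values over the 12 arrays, which share the treatment groups and the resemblance of successive replicates. Over 12 arrays r was 0.9 or more for 28 of them. This r includes the group difference, for which CYN was chosen. The 5 highest were GH9B12, a glycosyl hydrolase of family 9 (r = 0.97), AT3G06570 (0.96), AT1G54500 (0.95), AT2G21720 (0.95) and AT1G11730 (0.95). GH9B12 had a mean of 0.106 ± 0.0216 after proline and 0.274 ± 0.0139 in water (SD, n = 6 each), and its lowest sample, proline replicate 4, was also the lowest of CYN. The log2 changes of AT3G06570, AT2G21720 and AT1G11730 lay between -1.12 and -0.99. AT1G54500 had 0.526 ± 0.0488 after proline and 0.540 ± 0.0323 in water as deposited, so its normalized log2 change of -0.41 came with nearly equal deposited means, and its r with CYN was 0.33 in the values as deposited.

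The choice of CYN for its change did not use how it varied inside the groups. After the group means were subtracted, r over the 12 arrays had a median of -0.019 among single-gene features and ran down to -0.84, with 12 features at -0.7 or lower. It was 0.7 or more for 5 of them, which are the 5 most like genes by this measure. They were AT2G23390 (r = 0.80), AT3G04650 (0.79), AT1G54500 (0.76), AT2G04700 (0.72) and AT3G54930 (0.71). AT2G04700 encodes a subunit of ferredoxin-thioredoxin reductase, which passes reducing power from photosystem I to thioredoxins, and AT3G54930 a regulatory subunit of protein phosphatase 2A. CYN deviated upward most in proline replicate 1 (0.49) and water replicate 3 (0.44), and downward most in proline replicate 4 (-0.49). The 5 genes were chosen for following these deviations, so their agreement there is no result. All 5 were also above their group mean in water replicate 1, where the deviation of CYN was -0.0031.

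Genes that varied with CYN inside the groups did not share a direction after proline. AT3G04650 had 1.35, 1.11, 0.929, 0.899, 1.18 and 0.961 in proline replicates 1 to 6, against 0.371, 0.398, 0.372, 0.363, 0.317 and 0.279 in water replicates 1 to 6. Its groups did not overlap, which in normalized values held, over both directions, for 27.5% of the features above 0 on all 12 arrays. AT3G04650 rose 2.44-fold (log2 1.29 ± 0.15 SE, adjusted p = 2.42e-05, limma), with an r over 12 arrays of -0.85 against CYN. AT2G04700 had 0.311, 0.278, 0.207, 0.181, 0.273 and 0.263 in proline replicates 1 to 6, against 0.341, 0.311, 0.311, 0.270, 0.351 and 0.347 in water replicates 1 to 6. Its normalized log2 level fell by 0.64 (adjusted p = 0.00139, limma). Its deposited values overlapped between the groups, its normalized ones did not, and the log2 change as deposited was -0.37. Neither AT2G23390 (log2 0.21, adjusted p = 0.292, limma) nor AT3G54930 (log2 -0.43, adjusted p = 0.0678, limma) passed. AT3G54930 passed in the values as deposited (adjusted p = 0.0355) and after median scaling (adjusted p = 0.00732), and without proline replicate 1, proline replicate 5 or water replicate 5 (adjusted p = 0.0365, 0.0495 and 0.0400). Over all its alternatives the adjusted p (limma) ran from 0.00732 to 0.201. AT1G54500 is among the most like genes by both measures. It was part of the test across all features, but no p-value is given for it, because its r over 12 arrays includes the group difference.

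**Figure D3:**
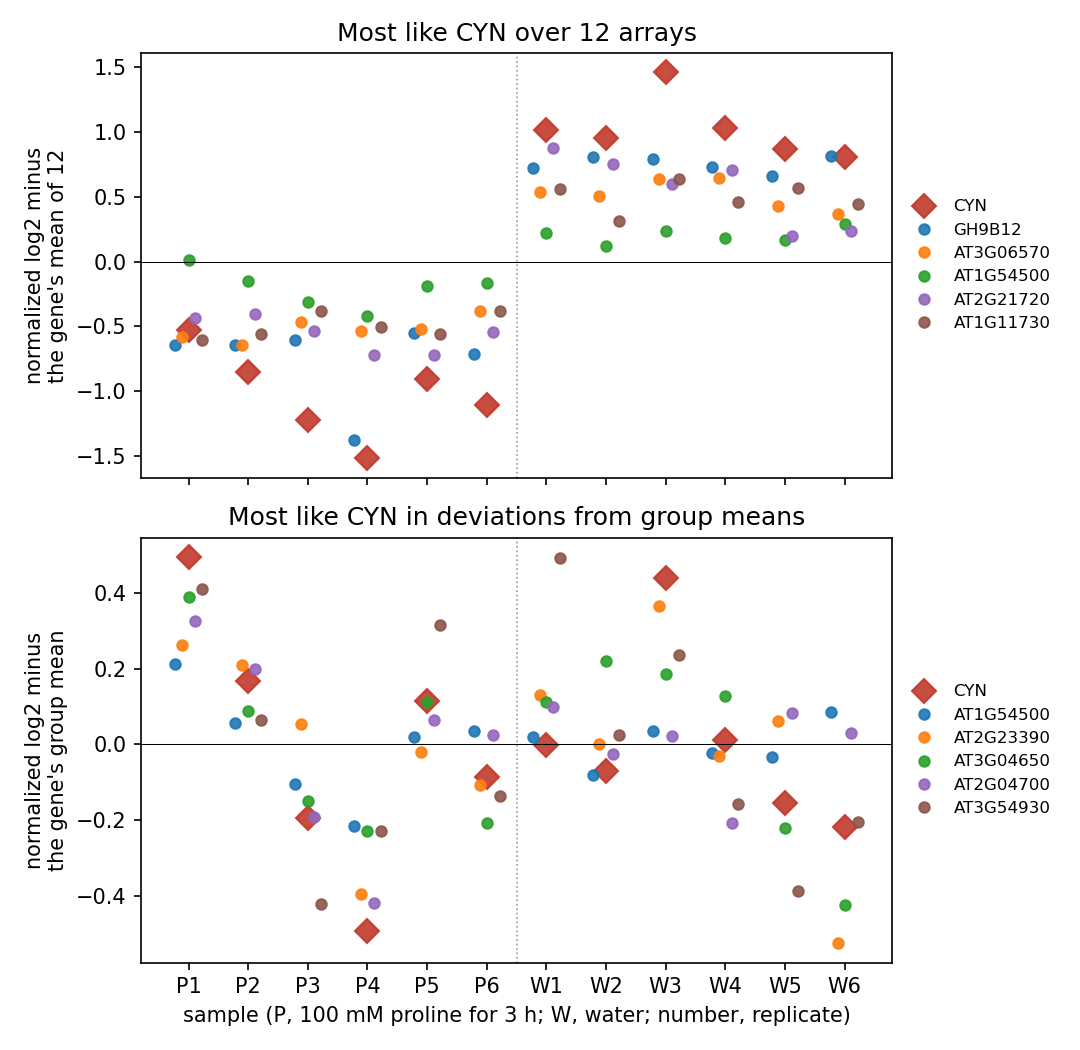
Normalized log2 intensity of CYN (red diamonds) and the 5 most like single-gene features (circles) by sample, proline replicates 1 to 6 left of the dotted line and water replicates 1 to 6 right of it; the upper panel is relative to each gene's mean over 12 arrays and the lower to its group mean. In the lower panel CYN is highest in proline replicate 1 (0.49) and lowest in proline replicate 4 (-0.49), and the 5 other genes were chosen for following it.

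The fall of CYN had nearly the same size under every processing that could move it. Its log2 change ran from -2.08 to -1.88 over 10 other scalings, filters and fits of all samples and from -2.14 to -1.94 when each sample was left out in turn. The filters, the blocks and the averaging of successive replicates left it at -2.04. That was fixed in advance, because CYN had a value on every array and the groups were of equal size. Leaving out proline replicate 1 gave the largest fall, and leaving out proline replicate 4 the smallest of the 12. The SE was 0.16 with all 12 samples taken as separate, 0.22 with successive replicates averaged and 0.21 with them as a random block. The last of these was added after the data were seen.

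**Figure D4:**
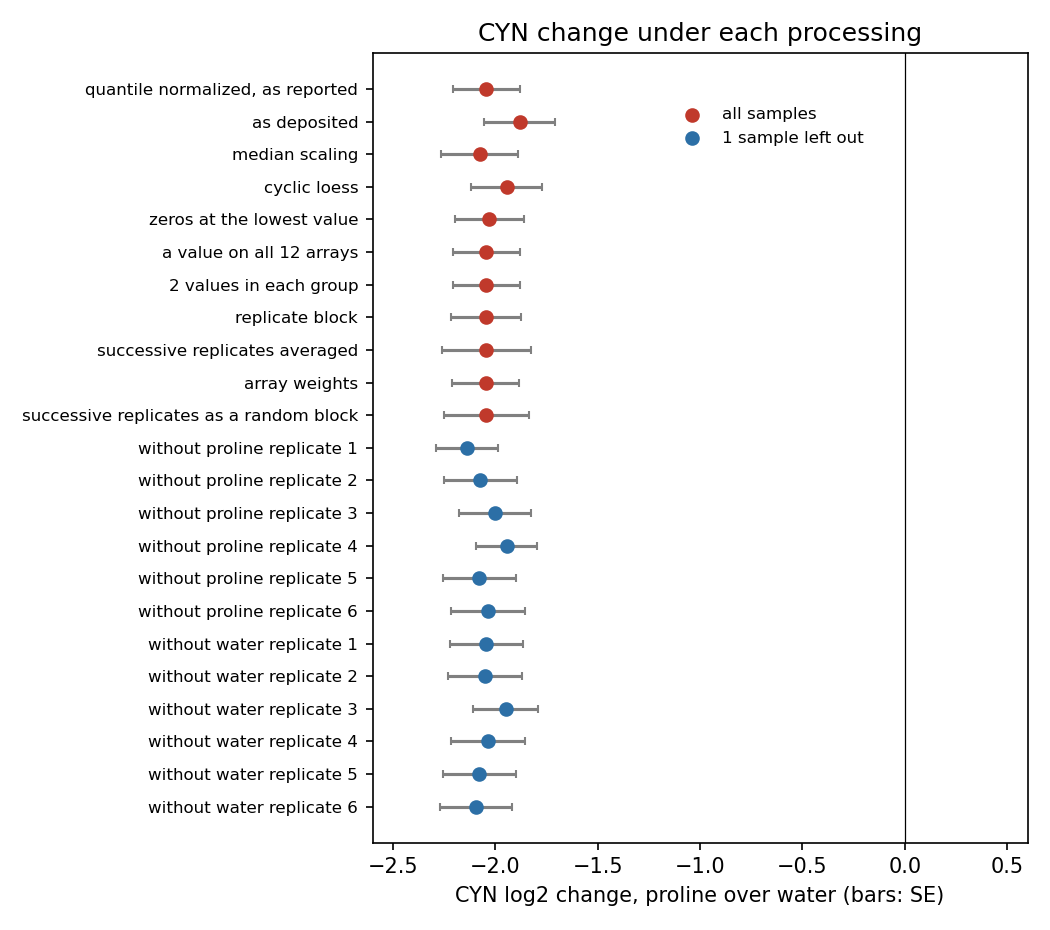
Log2 change of CYN, proline over water (horizontal axis), under each processing (rows), with the SE as bars; red points use all samples and blue points leave out 1 sample. All points lie between -2.14 and -1.88, left of the line at 0.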

How the data were processed

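The authors deposited relative intensity per feature, linear, with zeros and a ceiling of 100. The sources used here do not say how these values were made, so how background and scaling affect dim features is unknown, and the number of arrays and the likeness of successive replicates limit the precision. Zeros were set to missing, log2 taken and arrays quantile normalized. Features with at least 4 of 6 values in each group (2861) were compared by limma 3.58.1 in R 4.3.3 (no block, two-sided, Benjamini-Hochberg adjusted p under 0.05, unadjusted p under 0.05 for 1471 features). The fit was run on simulated data with independent noise for each array, which does not cover the resemblance of successive replicates. Of the 1263 features called, 523 were higher and 740 lower, against 702 higher and 483 lower as deposited. Levels are deposited intensities, zeros included.

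Genes were named from GEO's platform annotation, which is old, for features with 1 gene only, and 690 of 692 matched a RefSeq locus. The gene, the lists and the rules were chosen with earlier results of these data known. Named were CYN, list genes with a tested feature, the 5 most like genes by each measure, the 3 nearest in water level on each side, the 5 largest falls among bright single-gene features and neighbours within 10 genes. AT3G52070 and AT3G44020 are named as the edge of the bright class. The labels give replicate numbers 1 to 6 in both groups. Deviations of equal numbers correlated at 0.403, 0.370, 0.255, 0.257, 0.283 and 0.184. Equal numbers thus resembled each other, but the labels do not say that the samples were paired. The main fit took no account of this, and an alternative used the replicate number as a block. P-values set the group difference against the spread between samples, which may be technical. Alternatives were other scalings, filters, zeros, blocks, weights, averaged successive replicates and leaving out each sample, with other limits for bright features. The random block used statmod 1.5.0.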

Additional observations from a re-analysis of the deposited data

Results flagged for a closer look

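Of 45 groups of 6 values examined for CYN and the other named genes, 2 held a sample far from the other 5, where chance gives about 2.25. CYN stood at a normalized log2 intensity of 3.62 in water replicate 3, with the other 5 water samples between 2.96 and 3.19. GH9B12 stood at -3.85 in proline replicate 4, with the other 5 proline samples between -3.19 and -3.03. Without water replicate 3 the log2 change of CYN was -1.95.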

How the results depend on the processing

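The log2 change of CYN kept its direction and nearly its size under the other scalings, zeros and weights and without each sample in turn. CYN also kept first place among falls of bright features there. The filters, the blocks and the averaging could not move either, because the bright features had a value on every array. Limits for bright features of 1 or 4, medians in place of means and single-gene features alone changed only which features were ranked. First place was fixed for the limit of 4 and for single-gene features, which are parts of the bright set. In absolute size CYN was second with the limit of 1. Its place in water level was 56th of 189, and 13th of 31 among single-gene features. With successive replicates averaged, 686 features changed instead of 1263 and 0 of the 3 list genes instead of 2 (limma), and as a random block 887 changed and 1 list gene. Leaving out each sample gave 1 to 2 list genes and 1185 to 1219 features. With the replicate number as a block (replicate block), the log2 change of CYN was -2.04 with an SE of 0.17, and 1360 features changed. No call moved there on a named gene for which a p-value is given. The most like genes were less settled. Of the 5 over 12 arrays, 2 to 4 remained when a sample was left out, 2 as deposited and 0 by Spearman's rho. Of the 5 in deviations, 2 to 5 remained when a sample was left out, 3 as deposited and 0 with successive replicates averaged. The cause was not tested. Signal over background is not given, so the depth of the dim features cannot be stated.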
